A study of Saccharomyces cerevisiae with 6 samples.

Results

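The 3 amino acid synthesis genes of budding yeast, ARG5,6, TRP4 and LEU9, were followed through the reads deposited under the features that lie opposite them. The members were taken by identifier: YER068C-A opposite ARG5,6 (YER069W), YDR354C-A opposite TRP4 (YDR354W) and YOR108C-A opposite LEU9 (YOR108W). They are 3 of the 7127 features listed for each library, and all 3 passed the filter on low counts, which kept 2325 features. RNA was sequenced in 6 libraries in all, from Saccharomyces cerevisiae BY4741, the strain of every group. From general knowledge and not from the labels, this haploid laboratory strain carries deletions at HIS3, LEU2, MET17 and URA3. LEU2 held 0 reads in all 6 libraries, while HIS3 held 6 and 0 in control, 6 and 7 in nitrogen and 6 and 5 in potassium libraries. Own identifiers of many genes hold few or no reads here, so neither count bears on the deletions. Cells growing in synthetic complete medium were left untreated (control), starved of nitrogen or starved of potassium for 1 h, with 2 libraries per group. Each group has 1 library in each of the 2 batches that the labels number. Nothing in the labels says that the 2 libraries of a group came from separate cultures, so p-values measure the spread between libraries, which may be technical. The labels do not give the composition of the starvation media, and with it whether amino acids were present.

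As background, ARG5,6 encodes a precursor that is cut in the mitochondrion into acetylglutamate kinase and acetylglutamyl-phosphate reductase, enzymes of the ornithine branch of arginine synthesis. TRP4 encodes anthranilate phosphoribosyltransferase of tryptophan synthesis. LEU9 encodes alpha-isopropylmalate synthase, the enzyme that commits carbon to leucine, and LEU4 encodes its paralog. LEU2 acts later in the same pathway. Many genes of amino acid synthesis in yeast are activated by Gcn4 when amino acids run short. Arginine genes are also repressed by arginine, and leucine genes respond to alpha-isopropylmalate through Leu3.

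YER068C-A was placed on the minus strand of chromosome V at 295301 to 295732 (R64), a reading frame of 432 bases. It lies opposite bases 1 to 323 of the single exon of ARG5,6 (plus strand, 295410 to 298001) and runs 109 bases past its start codon into the upstream region. YDR354C-A, of 144 bases, was placed on chromosome IV at 1185139 to 1185282, opposite bases 393 to 536 of the single exon of TRP4 (plus strand, 1184747 to 1185889). YOR108C-A, of 210 bases, was placed on chromosome XV at 524605 to 524814, opposite bases 1579 to 1788 of the single exon of LEU9 (plus strand, 523027 to 524841), with 27 bases left to the end of the gene. The features thus cover 12.5%, 12.6% and 11.6% of the 3 coding sequences, at the start, in the middle and at the end. Reads from the rest of each gene do not count toward them. All 3 features are missing from the reference annotation and were placed by a search for a reading frame of the deposited length.

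**Figure D1:**
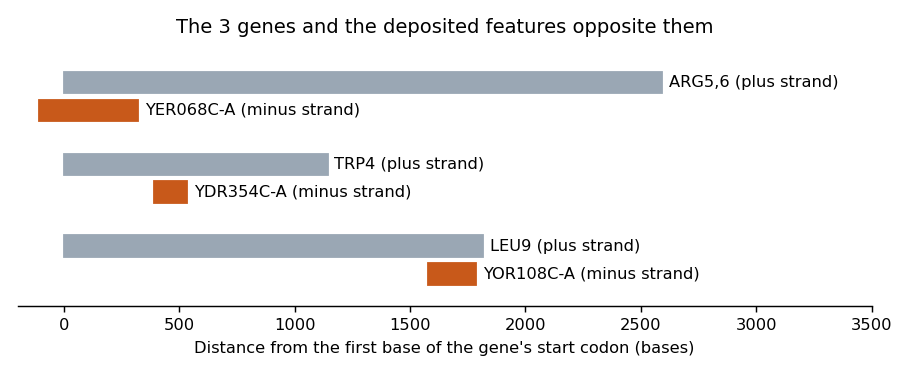
Position of the 3 genes (grey, plus strand) and of the deposited features opposite them (orange, minus strand), in bases from the first base of each start codon. YER068C-A covers the start of ARG5,6 and 109 bases before it, YDR354C-A the middle of TRP4 and YOR108C-A the end of LEU9.

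The sequences below, from the R64 reference, show how the features lie against their genes. The first pair is chrV:295380-295439 on the minus strand, as in YER068C-A, and on the plus strand, as in ARG5,6, with the start codon of ARG5,6 or its complement in capitals. The other lines are the whole of YDR354C-A (chrIV:1185139-1185282, minus strand) and of YOR108C-A (chrXV:524605-524814, minus strand), with the start and stop codons that placed each frame in capitals.
YER068C-A: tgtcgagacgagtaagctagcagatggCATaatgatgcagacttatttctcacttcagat
ARG5,6: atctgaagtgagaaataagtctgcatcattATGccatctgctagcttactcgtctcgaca
YDR354C-A: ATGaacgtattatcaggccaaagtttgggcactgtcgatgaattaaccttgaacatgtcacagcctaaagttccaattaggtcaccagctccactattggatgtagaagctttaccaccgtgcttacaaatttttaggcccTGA
YOR108C-A: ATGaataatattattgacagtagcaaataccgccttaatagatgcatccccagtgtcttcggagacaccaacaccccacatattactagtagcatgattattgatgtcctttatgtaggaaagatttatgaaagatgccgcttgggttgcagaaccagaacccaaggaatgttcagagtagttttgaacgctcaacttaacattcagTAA

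Every stretch of 25 bases in the 3 features occurs 1 time in the reference genome, counting both strands (408 of 408, 120 of 120 and 186 of 186 stretches). Reads in each library were whole numbers under all 3. LEU4 is 78.6% identical to LEU9 over the coding sequences, but over the stretch under YOR108C-A the identity was 68.8% and the longest shared run 14 bases.

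Depth was shallow, from 357839 to 425919 reads per library. Features at the ribosomal RNA genes took 17.4% to 25.3% of the reads in 5 libraries and 40.5% in potassium library 2. The potassium libraries stood furthest apart, with a chi-square of 20.1 per degree of freedom, against 5.59 for the control and 6.27 for the nitrogen pair. Features paired with a protein-coding gene on the other strand took 55.8% to 60.0% of reads in control, 25.1% to 27.2% in nitrogen and 41.6% to 50.5% in potassium libraries. Levels are given as CPM, reads relative to library size, scaled by the trimmed mean of M values (TMM) over all tested features. Because the share of paired features differed between groups, each result is also given with TMM computed over paired features alone (paired scaling). It raised the median log2 fold change over all features by 1.27 (nitrogen against control), 0.21 (potassium against control) and 1.07 (nitrogen against potassium).

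The genes' own identifiers held almost no reads. ARG5,6 (YER069W) held 1 and 1 in control, 7 and 7 in nitrogen and 5 and 1 in potassium libraries. TRP4 held 1 and 0, 1 and 4, and 1 and 0 reads in the same order, and LEU9 held 0 and 0, 1 and 2, and 0 and 0. A count of 0 allows a share of up to 0.000704% to 0.000835% of a library's reads, for counting error only. None of the 3 identifiers passed the filter on low counts. The strand setting of the quantifier is not given in the sources used here. Which strand the deposited reads came from was not tested, so the values below are reads under the opposite features. A level, change, ratio or call given below for ARG5,6, TRP4 or LEU9 is that of YER068C-A, YDR354C-A or YOR108C-A. Whether it reflects the message of the gene was not tested.

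The feature opposite ARG5,6 was the member that stood out in nitrogen starvation. YER068C-A held 112 and 58 reads in control, 3477 and 2119 in nitrogen and 177 and 80 in potassium libraries. As a share of the library this was 0.0263% (95% Wilson interval 0.0219 to 0.0316) and 0.0139% (0.0107 to 0.0179) in control. It was 0.972% (0.940 to 1.00) and 0.566% (0.543 to 0.591) in nitrogen, and 0.0493% (0.0425 to 0.0571) and 0.0199% (0.0160 to 0.0247) in potassium. Both nitrogen libraries lay far above all 4 others, while the potassium and control libraries overlapped. Wilson intervals cover counting error only, since reads are not independent molecules.

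In nitrogen starvation the feature opposite ARG5,6 rose from 309 ± 102 to 3686 ± 1157 CPM (SD, n = 2 each), 11.9-fold (log2 3.57, SE 0.35, adjusted p = 0.00011). With paired scaling the rise was 28.7-fold (log2 4.84, SE 0.40, adjusted p = 2.7e-05). In bulk RNA, a change in every cell and a change in a part of the cells cannot be told apart. Against potassium starvation the nitrogen level was 8.77-fold higher (log2 3.13, SE 0.34, adjusted p = 0.00029), or 18.2-fold with paired scaling (log2 4.18, adjusted p = 7.6e-05). In potassium starvation ARG5,6 was at 417 ± 102 CPM and did not pass the test (log2 0.44, 95% interval -0.34 to 1.21, adjusted p = 0.46; 0.66 with paired scaling, adjusted p = 0.29).

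In each group the library of batch 1 held a higher level of YER068C-A than that of batch 2. The ratio of their CPM was 1.61 in control, 1.57 in nitrogen and 1.42 in potassium, or 1.67, 1.57 and 1.77 with paired scaling. For LEU9 the same ratios were 1.04, 0.96 and 0.93. Within batch 1 the log2 ratio of nitrogen to control for ARG5,6 was 3.56 and within batch 2 it was 3.59. The rise was thus nearly the same in both batches although the levels were not.

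When the 352 tested paired features were ordered by reads, which also depend on feature length, YER068C-A stood at places 152 and 222 under control conditions and at places 4 and 9 under nitrogen starvation. In the potassium libraries it stood at 112 and 178. This order does not depend on the scaling between libraries. In nitrogen starvation the feature was among the most read of the paired features.

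The feature opposite TRP4 had few reads and its change in nitrogen starvation depended on the scaling. YDR354C-A held 40 and 38 reads in control, 136 and 140 in nitrogen and 28 and 32 in potassium libraries. The nitrogen libraries held more reads than all others and the control and potassium libraries overlapped in CPM. With TMM the level went from 145 ± 13.4 to 183 ± 9.43 CPM (n = 2 each) and did not pass (log2 0.33, 95% interval -0.43 to 1.09, adjusted p = 0.44). With paired scaling it went from 103 ± 6.66 to 316 ± 15.8 CPM, 3.05-fold higher (log2 1.61, SE 0.30, adjusted p = 0.0019). Both scalings had the nitrogen libraries above the control libraries without overlap.

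In potassium starvation TRP4 was at 108 ± 42.9 CPM and did not pass (log2 -0.46, 95% interval -1.27 to 0.35, adjusted p = 0.46). The 2 potassium libraries were at 77.4 and 138 CPM, the lower in batch 1 and the higher within the range of the control libraries. Nitrogen against potassium gave log2 0.79 (SE 0.34, adjusted p = 0.093) with TMM and 1.89 (SE 0.31, adjusted p = 0.0013) with paired scaling. The TMM value was 1.24 and passed without potassium library 2 (adjusted p = 0.030), and was 0.28 without potassium library 1 (adjusted p = 0.51).

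The feature opposite LEU9 was the member that fell in potassium starvation. YOR108C-A held 146 and 117 reads in control, 195 and 195 in nitrogen and 26 and 18 in potassium libraries. Its share of the library was 0.0343% (95% Wilson interval 0.0292 to 0.0403) and 0.0280% (0.0234 to 0.0335) in control. In the potassium libraries the share was 0.00724% (0.00494 to 0.0106) and 0.00447% (0.00283 to 0.00707). Both potassium libraries lay below all 4 others, with either scaling.

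From control to potassium starvation the feature opposite LEU9 fell from 487 ± 13.7 to 74.8 ± 4.06 CPM (n = 2 each), 6.52-fold lower (log2 -2.70, SE 0.24, adjusted p = 0.0013). With paired scaling it was 5.64-fold lower (log2 -2.50, SE 0.25, adjusted p = 0.0017). The call held without each library in turn, at log2 -2.76 to -2.58. The level in nitrogen starvation was 3.46-fold above that in potassium starvation (log2 1.79, SE 0.24, adjusted p = 0.00063), or 7.26-fold with paired scaling (log2 2.86, adjusted p = 6.2e-05).

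Between control and nitrogen starvation the direction for LEU9 turned with the scaling. With TMM the level was 258 ± 8.04 CPM in nitrogen, 1.88-fold below control (log2 -0.91, SE 0.21, adjusted p = 0.0075). With paired scaling it was 446 ± 13.1 against 347 ± 19.3 CPM (log2 0.36, 95% interval -0.12 to 0.85, adjusted p = 0.16). On the authors' deposited TPM it was called higher (log2 1.12, adjusted p = 0.029). The TMM call was also lost with DESeq2 (log2 -0.68, adjusted p = 0.077) and without control library 1 or either nitrogen library (adjusted p from 0.050 to 0.060). The median log2 fold change of the 352 paired features was -1.14 with TMM and 0.13 with paired scaling, both below the LEU9 value under the same scaling.

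**Figure D2:**
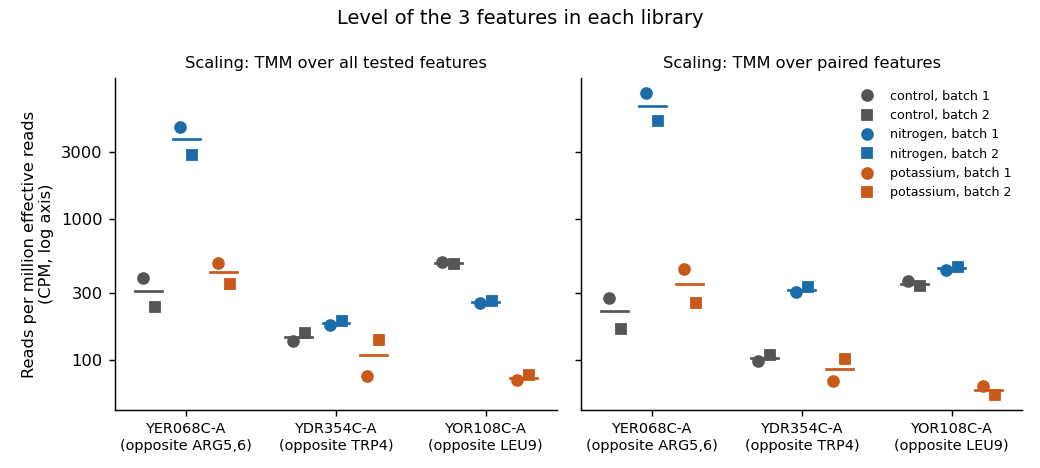
CPM (log axis) of the 3 features in each library, with TMM over all tested features (left) and over paired features (right). Circles are batch 1, squares batch 2 and bars the means of 2 libraries; the nitrogen libraries of YER068C-A and the potassium libraries of YOR108C-A stand apart in both panels, and those of YOR108C-A in nitrogen lie below control on the left and above it on the right.

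Counted over the 3 members, 1 rose in nitrogen starvation with TMM, where 25.8% of all 2325 features were called higher, and 1 fell, where 20.4% were called lower. With paired scaling 2 of the 3 rose, against 56.5% of all features, and 0 fell, against 7.66%. In potassium starvation 0 rose and 1 fell with both scalings. The shares over all features were 4.73% higher and 4.6% lower with TMM, or 5.63% and 3.7% with paired scaling. In nitrogen against potassium starvation 2 of the 3 were higher with TMM (23.3% of all features) and 3 with paired scaling (49.2%), and 0 were lower (19.4% and 7.74%). By libraries that do not overlap, 2 of the 3 were higher and 1 lower in nitrogen starvation with TMM (45.7% and 33.3% of all features), and 3 higher and 0 lower with paired scaling (73.8% and 12.7%). In potassium starvation 0 were higher (26.8% with TMM and 32.1% with paired scaling) and 1 lower (27.6% and 22.1%). In nitrogen against potassium all 3 were higher with either scaling (43.3% and 67%) and 0 lower (33.1% and 13.3%). Nitrogen starvation moved so many features that the members' counts there are near the background. In potassium starvation a called fall was uncommon (4.6% and 3.7%). A fall by libraries that do not overlap was not (27.6% and 22.1%), and 1 of the 3 is near that share.

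**Figure D3:**
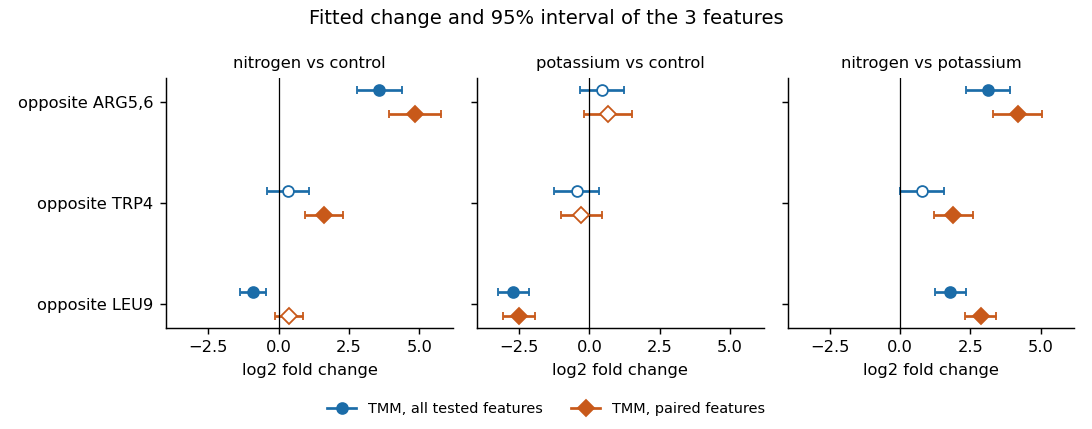
Fitted log2 fold change of each feature in the 3 comparisons, with 95% intervals, for TMM over all tested features (blue circles) and over paired features (orange diamonds). Filled symbols passed an adjusted p of 0.05; both scalings passed for ARG5,6 in nitrogen against either group, and for LEU9 in potassium against control and nitrogen against potassium.

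The ratio of reads between 2 features within a library is free of the scaling. It is not a ratio of message levels, since the features differ in length. ARG5,6 reads per LEU9 read were 0.767 and 0.496 in control, 17.8 and 10.9 in nitrogen and 6.81 and 4.44 in potassium libraries. The groups did not overlap, and the ratio was above control in both starvations. ARG5,6 per TRP4 was 2.80 and 1.53 in control, 25.6 and 15.1 in nitrogen and 6.32 and 2.50 in potassium, where control and potassium overlapped. TRP4 per LEU9 was 0.274 and 0.325 in control, 0.697 and 0.718 in nitrogen and 1.08 and 1.78 in potassium, without overlap. Reads under the opposite features of ARG5,6 and LEU9, and of TRP4 and LEU9, were thus in other proportions in each starvation than in control in these libraries. The potassium ratios rest on 26 and 18 reads for LEU9 and on 28 and 32 for TRP4. How many other pairs of features differ likewise was not counted. With 2 libraries against 2, an exact permutation test (two-sided) cannot go below p = 0.333, and none was run.

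**Figure D4:**
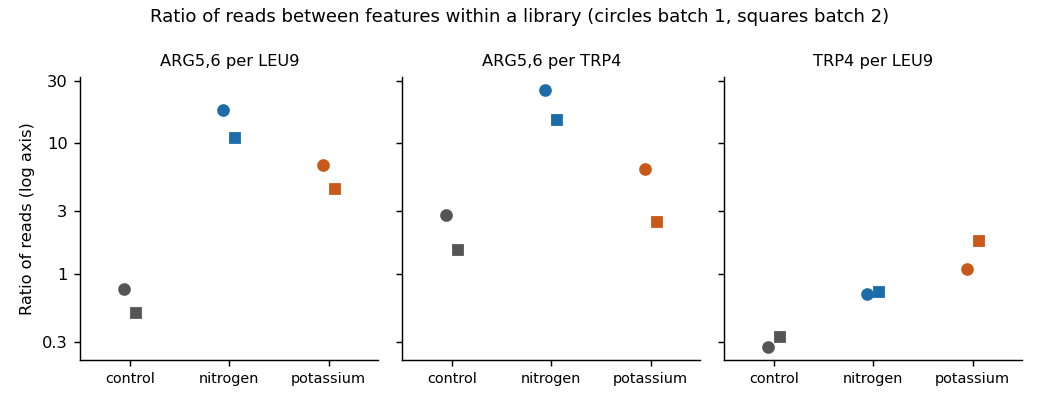
Ratio of reads between pairs of the 3 features within each library (log axis), for control, nitrogen and potassium libraries, circles batch 1 and squares batch 2. ARG5,6 per LEU9 runs from 0.496 in control to 17.8 in nitrogen, and TRP4 per LEU9 is highest in potassium, at 1.08 and 1.78.

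Levels per length can be read only from the authors' deposited TPM. YER068C-A had 122 and 63.1 TPM in control, 5893 and 3143 in nitrogen and 251 and 85.9 in potassium libraries. YDR354C-A had 1349 and 1280, 7138 and 6432, and 1229 and 1065, and YOR108C-A had 2601 and 2083, 5409 and 4734, and 603 and 316. The deposited effective lengths behind these values are 183, 5.91 and 11.2 bases, since few fragments fit inside the short features. The order of the 3 in TPM therefore rests on those estimates. In each feature, TPM was higher in both nitrogen libraries than in the 4 others. This was not particular to the members. Of all 2325 features, 1589 were called higher and 94 lower on TPM in nitrogen against control, and 1383 and 71 in nitrogen against potassium.

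The rest of amino acid synthesis was visible only in part. Of 82 genes in 6 lists of arginine, aromatic, branched-chain and other amino acid synthesis and their regulators, 22 had enough reads under their own identifiers to be tested. Own identifiers hold few reads here, as for the 3 genes above, and are not taken as message levels. Most of the 22 passed the filter only through their nitrogen libraries. These are LEU1, THR1, TYR1, ARG4, LYS12, ARO3, ARO4, HIS5, ASN2, PRO3, GCN4, ILV5, SHM1, LEU3 and ARG80. All 8 genes called higher in nitrogen starvation with TMM are among them. A count of genes higher in nitrogen was thus selected by the filter and supports nothing. For the same reason the ratios, bounds and calls of these genes below are descriptions only. In nitrogen starvation 8 of the 22 were called higher (25.8% of all features) and 1 lower (20.4%) with TMM, and 14 higher (56.5%) and 0 lower (7.66%) with paired scaling. The 9 TMM calls went down to 5 without nitrogen library 2. In potassium starvation 1 was higher (4.73% with TMM, 5.63% with paired scaling) and 1 lower (4.6% and 3.7%) with either scaling, and 0 were called with TMM when either control library, or potassium library 1, was left out. In nitrogen against potassium 10 were higher (23.3%) and 2 lower (19.4%) with TMM, and 15 higher (49.2%) and 0 lower (7.74%) with paired scaling. Those 12 TMM calls went down to 5 without potassium library 1, to 7 without either nitrogen library and to 6 with DESeq2.

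By pathway, arginine synthesis had 3 of 10 genes tested, of which ARG4, argininosuccinate lyase, was higher and ARG1, argininosuccinate synthetase, lower in nitrogen starvation. ARG4 held 1 and 0 reads in control and 28 and 25 in nitrogen libraries, a ratio of 18.9 (counting interval 3.25 to 761). ARG1 held 43 and 39 against 14 and 32 (log2 -2.30, adjusted p = 0.0035), or log2 -1.03 with paired scaling (adjusted p = 0.087). ARG4 and ARG1 act later in the pathway than ARG5,6, and the ARG1 call was not made with paired scaling.

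Of 13 aromatic genes 4 were tested, and 2 were called higher in nitrogen starvation with TMM (25.8% of all features) and 4 with paired scaling (56.5%). The TMM calls, ARO4 and TYR1, passed the filter only through nitrogen libraries, so these counts support nothing. Of 13 branched-chain genes 4 were tested. LEU1, isopropylmalate isomerase, had 0 reads in either control library and 35 and 31 reads under nitrogen starvation, at least 3.93-fold higher (floor of 3 reads per library). It passed the filter only through these nitrogen libraries. ILV1, threonine deaminase, was the only branched-chain gene called in potassium starvation, with 5 and 2 reads in control and 86 and 13 in potassium (log2 3.52, adjusted p = 0.048). Leaving out control library 1, control library 2 or potassium library 1 ended that call (adjusted p = 0.11, 0.16 and 0.30). LEU4 held 4 and 2, 4 and 3, and 2 and 2 reads, too few to be tested.

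Of 39 other genes 9 were tested. In nitrogen starvation 4 were higher with TMM (25.8% of all features) and 6 with paired scaling (56.5%). The 4 TMM calls, THR1, LYS12, ASN2 and PRO3, passed the filter only through nitrogen libraries, so these counts support nothing. Among them THR1, homoserine kinase, held 0 and 1 reads in control and 38 and 47 in nitrogen (ratio 30.3, counting interval 5.30 to 1212). LYS12, of lysine synthesis, held 1 and 0 against 19 and 55 (ratio 26.4, 4.60 to 1057), a call lost without nitrogen library 2 (adjusted p = 0.074). In potassium starvation GDH3, a glutamate dehydrogenase, was lower (log2 -1.48, SE 0.32, adjusted p = 0.023), and leaving out control library 1, control library 2 or potassium library 1 ended that call (adjusted p = 0.099, 0.079 and 0.13). In nitrogen against potassium, THR1, LYS12, TYR1 and HIS5 had the highest fitted fold changes of the 10 called higher, but with 0 to 2 reads in potassium these cannot be ranked against the others. The LYS12 call was lost without nitrogen library 2, potassium library 1 or potassium library 2 (adjusted p = 0.12, 0.10 and 0.054). The HIS5 call was lost in the same 3 cases (0.19, 0.073 and 0.092) and with DESeq2 (0.099). TYR1, prephenate dehydrogenase of tyrosine synthesis, held 0 reads in both potassium libraries and 35 and 42 in nitrogen, at least 5.04-fold higher. ILV1 (log2 -2.28, adjusted p = 0.036) and ARG1 (log2 -1.58, adjusted p = 0.022) were lower with TMM and not called with paired scaling.

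GCN4 held 3 and 2 reads in control, 10 and 12 in nitrogen and 1 and 0 in potassium libraries. It passed the filter on low counts only through its nitrogen libraries, so its calls are descriptions only. It was not called in nitrogen starvation with TMM (log2 0.64, adjusted p = 0.47) and was called higher with paired scaling (1.88, adjusted p = 0.039). The latter call was lost with the replicate block (adjusted p = 0.11) and without either control or either nitrogen library (adjusted p = 0.10, 0.13, 0.18 and 0.26). In nitrogen against potassium GCN4 was called higher with TMM (log2 2.93, adjusted p = 0.037), a call lost with the replicate block (adjusted p = 0.096). Leaving out 1 library gave log2 2.29 to 6.32 over both scalings. At these counts no level of the GCN4 message can be given. Its control is also known to lie largely in translation, which RNA reads do not show.

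Beside the 3 members, TRP1 and PRO3 are the listed genes with a paired feature. YDR008C, opposite TRP1 of tryptophan synthesis, held 186 and 164 reads in control, 255 and 225 in nitrogen and 194 and 101 in potassium libraries. Its log2 fold change in nitrogen starvation was -1.03 with TMM (adjusted p = 0.0041) and 0.24 with paired scaling (adjusted p = 0.38). YER023C-A, opposite PRO3 of proline synthesis, held 227 and 204, 293 and 225, and 214 and 174 reads. Its values were -1.23 (adjusted p = 0.0026) and 0.05 (adjusted p = 0.83). Both turned with the scaling as LEU9 did, and neither passed in potassium starvation (log2 -0.42 and -0.26), where LEU9 fell.

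The patterns most like the members' were sought among the other 351 tested paired features with a mean of at least 10 CPM, by Pearson's r of log2(CPM + 1) over the 6 libraries. For ARG5,6 these were the features opposite DAL80 (r = 0.97), DAL7 (0.96) and HVG1 (0.96), all high in nitrogen libraries. For TRP4 they were ISU1 (0.92), MRM1 (0.90) and YMC1 (0.85), and for LEU9 VMA9 (0.94), NBP1 (0.88) and DIC1 (0.84). The feature opposite DIC1 held 549 and 384 reads in control, 256 and 160 in nitrogen and 65 and 44 in potassium libraries. Between the members r was 0.50 for ARG5,6 and TRP4, 0.60 for TRP4 and LEU9 and 0.06 for ARG5,6 and LEU9. With 6 libraries in 3 groups that share their depth and scaling, these values are descriptions only.

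Genes next to the members were read under their own identifiers. MOT2, which ends 596 bases before ARG5,6, held 9 and 2 reads in control, 235 and 129 in nitrogen and 9 and 2 in potassium libraries. TRR1, before TRP4, held 11 and 5, 126 and 125, and 10 and 8 reads. RGS2, before LEU9, held 27 and 8, 379 and 250, and 7 and 5. With TMM all 3 were called higher in nitrogen starvation (log2 3.56, 2.49 and 2.70). MOT2 and RGS2 passed the filter on low counts only through their nitrogen libraries, so their calls support nothing. The features opposite TRP4 and LEU9 were not called higher with TMM. Over all features, 601 were called higher and 474 lower in nitrogen starvation with TMM, 1314 and 178 with paired scaling, 1449 and 120 with library size alone and 1589 and 94 on TPM. The genes after the members, RNR1, SPC110 and INP53, held at most 10 reads in any library.

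The stretch from 250 bases before to 50 bases after the start codon was searched on both strands for TGACTC, the core bound by Gcn4, for GATAAG, bound by GATA factors of nitrogen control, and for the Leu3 motif, CCGG repeated after any 2 bases. TGACTC was found in 7.98% of 6001 such promoters, GATAAG in 14.7% and the Leu3 motif in 0.133%, with no overlap between matches in the 3 genes. The ARG5,6 promoter held TGACTC at -223 to -218 and at -177 to -172 and GATAAG, on the other strand, at -233 to -228. The TRP4 promoter held TGACTC at -165 to -160 and GATAAG, on the other strand, at -6 to -1, and the LEU9 promoter held none of the 3. Positions count back from the base before the start codon. A match is a run of letters and not a shown site, and no match says only that these letters are not in the window. The promoters of ARG5,6 (chrV:295160-295459, plus strand), whose last bases YER068C-A covers, and TRP4 (chrIV:1184497-1184796, plus strand) are shown with the matches in capitals.
ARG5,6 promoter: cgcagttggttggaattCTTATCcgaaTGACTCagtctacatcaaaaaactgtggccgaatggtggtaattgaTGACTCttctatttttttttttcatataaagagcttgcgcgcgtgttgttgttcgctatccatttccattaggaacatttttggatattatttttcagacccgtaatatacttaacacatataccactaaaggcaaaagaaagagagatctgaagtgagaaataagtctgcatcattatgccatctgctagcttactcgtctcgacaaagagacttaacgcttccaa
TRP4 promoter: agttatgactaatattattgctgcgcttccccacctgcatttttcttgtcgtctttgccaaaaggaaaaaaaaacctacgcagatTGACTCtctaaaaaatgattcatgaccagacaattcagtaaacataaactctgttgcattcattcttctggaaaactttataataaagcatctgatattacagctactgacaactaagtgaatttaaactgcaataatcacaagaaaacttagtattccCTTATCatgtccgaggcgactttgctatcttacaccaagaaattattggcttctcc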

How the data were processed

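Per the file headers, the authors' deposited files hold estimated counts, which need not be whole, and TPM for each library, in the columns that salmon writes. A deposited table holds a signal, named as DESeq2-normalised counts. STAR 2.7.3a, DESeq2 and build R64 are named in the submitters' processing notes; which quantifier version and strand option were used is not stated there. Multiplying the deposited signal back gave whole reads in 100% of values (tolerance 0.001 reads), 100% of them equal to the rounded counts. With the recovered reads edgeR called 1077, 217 and 992 features in nitrogen against control, potassium against control and nitrogen against potassium, beside 1075, 217 and 992 with the rounded counts.

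Estimated counts were rounded and tested with edgeR 4.0.16 (R 4.3.3; quasi-likelihood test, TMM, filterByExpr) in 1 fit of all 6 libraries (residual degrees of freedom, 3). P-values were adjusted by Benjamini-Hochberg over the 2325 features of a comparison, and an adjusted p below 0.05 was called. SE is the log2 fold change over the root of F. TPM and normalised counts were tested with limma 3.58.1 on log2(value + 1), and DESeq2 1.42.0 was an alternative. On simulated data for nitrogen against control (1699 features tested) 26%, 84%, 96% and 100% of features changed 2-, 4-, 8- and 16-fold were recovered. Only 50 well-read features were changed at each fold, with as many rises as falls. The simulation had no shift in composition between groups, unlike these data. Its rates therefore do not cover changes that depend on the scaling, as for TRP4 and LEU9 in nitrogen starvation.

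Of the 7127 features, 6047 were placed from the annotation and 596 by the reading frame search between the neighbours that the identifier names. On 573 annotated genes the search placed 555 at 1 position each, all at the annotated start. A paired feature has at least 50% of its length and 100 bases opposite exactly 1 gene, a protein-coding one; there are 386, of which 352 were tested. Batch numbers in the labels pair the libraries; deviations from group means correlated at -0.01, -0.02 and 0.06 between libraries of the same batch. The members, lists and alternatives were chosen with earlier results of these data known. Named list genes were those called, or the 4 largest rises and falls where over 8 were called, and GCN4. Neighbouring genes and the 3 features with the highest r for each member were also named. Recovered reads, the replicate block with paired scaling and leaving out libraries under paired scaling were alternatives chosen after seeing the data.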

Additional observations from a re-analysis of the deposited data

How the results depend on the processing

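The direction and calls of ARG5,6 and LEU9 that held with both scalings held in each alternative run. Without 1 library ARG5,6 had log2 3.21 to 3.96 in nitrogen against control (4.48 to 5.27 with paired scaling) and 2.77 to 3.42 against potassium, and LEU9 -2.76 to -2.58 in potassium against control and 1.61 to 1.84 in nitrogen against potassium. TRP4 became called in nitrogen against control with paired scaling (1.61), library size alone (2.02), TPM (2.37) and the replicate block with paired scaling (1.61); without 1 library it had 0.24 to 0.43, or 1.54 to 1.67 with paired scaling. Against potassium TRP4 became called with paired scaling (1.89), library size (2.26), no low-count filter (1.18), limma on normalised counts (1.02), TPM (2.57) and the block with paired scaling (1.90); without 1 library it had 0.28 to 1.24, or 1.61 to 2.16. LEU9 in nitrogen against control turned with paired scaling (0.36), library size (0.77), TPM (1.12) and the block with paired scaling (0.37), and lost its call with no filter (-0.55) and DESeq2 (-0.68); without 1 library it had -0.97 to -0.88, or 0.31 to 0.42 with paired scaling. The cause was not tested. The replicate block alone changed no call of the 3 features (ARG5,6 in nitrogen against control 3.58, TRP4 0.33, LEU9 -0.91), and ended those of ILV1 (3.47 in potassium against control, -2.13 in nitrogen against potassium) and of GCN4 in nitrogen against potassium (2.93); with paired scaling it also ended that of GCN4 in nitrogen against control (1.89). The feature opposite TRP1 turned in nitrogen against control (0.24, 0.66, 1.00 and 0.24 with paired scaling, library size, TPM and the block with paired scaling) and against potassium (0.44, 0.73, 1.13 and 0.46), and without 1 library it ran from -1.09 to 0.30 and from -0.76 to 0.75 over both scalings. The feature opposite PRO3 turned likewise (0.052, 0.48, 0.80 and 0.047, and 0.12, 0.47, 0.77 and 0.12), and ran from -1.40 to 0.20 and from -1.25 to 0.28. ARG1 in nitrogen against potassium was 0.020 on TPM, and ILV1 ran from -3.51 to 0.33 without 1 library. Over all features 1683 were called in nitrogen against control on TPM, and in potassium against control 116 with library size, 22 on TPM and 62 to 284 without 1 library (72 to 231 with TMM); the TMM count was 92 and 72 when the first or second control library was left out and 75 when potassium library 1 was.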
